A study of Homo sapiens with 13 samples.

Results

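Metallothioneins and the zinc response were followed through 8 genes in AC16 cells: the metallothioneins MT2A, MT1E, MT1X, MT1F, MT1G and MT1M, the transcription factor gene MTF1 and the zinc exporter gene SLC30A1. They were chosen by name, as the rows of these 8 genes among the 63241 gene rows counted in each library. The 13 messenger RNA libraries fell into a control group of 3, an FCCP group of 3, a preconditioning group of 4 and a preconditioning+FCCP group of 3. AC16 is an immortalised human line obtained by fusion of ventricular cardiomyocytes with virus-transformed fibroblasts, FCCP is an uncoupler that collapses the proton gradient of mitochondria, and preconditioning was optogenetic, through a mitochondrial construct named mOpto. All 13 libraries are labelled as the same cell line and as wildtype, the control group is labelled control, and the other groups carry FCCP, preconditioning or both as their treatment. The labels give no dose, light setting or time, and do not say whether the control and FCCP cells carried mOpto or were lit. The labels do not state that replicates of a group were grown separately. Each p-value thus weighs a difference only against the spread among these samples, which may be technical.

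Metallothioneins are small cysteine-rich proteins that bind zinc, copper and cadmium and buffer free metal ions in the cell. MTF1 is the zinc-sensing transcription factor that binds metal response elements in promoters and switches on metallothionein genes and SLC30A1, whose product ZnT1 carries zinc out across the plasma membrane. MTF1 is also known to hold down SLC39A10, which encodes the zinc importer ZIP10, when zinc is plentiful. MT2A is a widely expressed isoform, whereas the MT1 genes are a cluster of close copies with more variable expression, and in heart cells metallothioneins are studied for their protection against oxidative stress.

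The bases upstream of the gene start show which of these genes carry the core of the metal response element. The promoter table held 4 of the 8 genes, and the 250 bases before each start are printed 5′ to 3′ on the gene's own strand, from RefSeq on build GRCh38.p14, at chr16:56608334-56608583 (plus strand) for MT2A, chr16:56682220-56682469 (plus strand) for MT1X, chr1:211579162-211579411 (minus strand) for SLC30A1 and chr1:37859593-37859842 (minus strand) for MTF1. Capitals mark every match to TGCACNC or TGCGCNC on either strand.
MT2A: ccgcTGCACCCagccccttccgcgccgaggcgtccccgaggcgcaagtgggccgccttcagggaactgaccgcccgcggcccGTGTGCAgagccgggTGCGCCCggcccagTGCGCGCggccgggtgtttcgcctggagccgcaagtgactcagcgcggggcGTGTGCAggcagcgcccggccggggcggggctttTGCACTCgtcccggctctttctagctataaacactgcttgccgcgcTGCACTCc
MT1X: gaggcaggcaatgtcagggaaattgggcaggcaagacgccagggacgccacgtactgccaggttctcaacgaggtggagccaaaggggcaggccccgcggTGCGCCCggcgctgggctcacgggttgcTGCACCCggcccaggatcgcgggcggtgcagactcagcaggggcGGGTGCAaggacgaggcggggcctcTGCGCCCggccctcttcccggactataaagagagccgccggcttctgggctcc
SLC30A1: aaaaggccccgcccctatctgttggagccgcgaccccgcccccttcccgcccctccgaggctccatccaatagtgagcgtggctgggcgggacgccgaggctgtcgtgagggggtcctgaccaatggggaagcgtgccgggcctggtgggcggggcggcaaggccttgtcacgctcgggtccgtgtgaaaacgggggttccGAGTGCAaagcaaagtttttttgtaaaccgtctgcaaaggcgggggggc
MTF1: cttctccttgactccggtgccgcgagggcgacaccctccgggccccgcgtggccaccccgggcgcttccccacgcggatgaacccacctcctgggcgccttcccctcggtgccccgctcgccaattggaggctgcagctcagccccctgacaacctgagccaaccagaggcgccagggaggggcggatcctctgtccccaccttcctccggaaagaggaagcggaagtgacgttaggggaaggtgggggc
MT2A held 7 matches, the nearest of which began 8 bases before the start (at -8). MT1X held 4 matches, from -150 to -53 by their first base, SLC30A1 held 1 match at -49, and MTF1 held none. Among 35116 promoters of the same length, 24.8% held at least 1 match, 0.37% at least 4 and 0.0313% at least 7. A match is a run of letters and not a measured binding site. For SLC30A1 the bases after the RefSeq start were not found near the beginning of a GENCODE 29 transcript, so the annotations differ on its start.

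**Figure D1:**
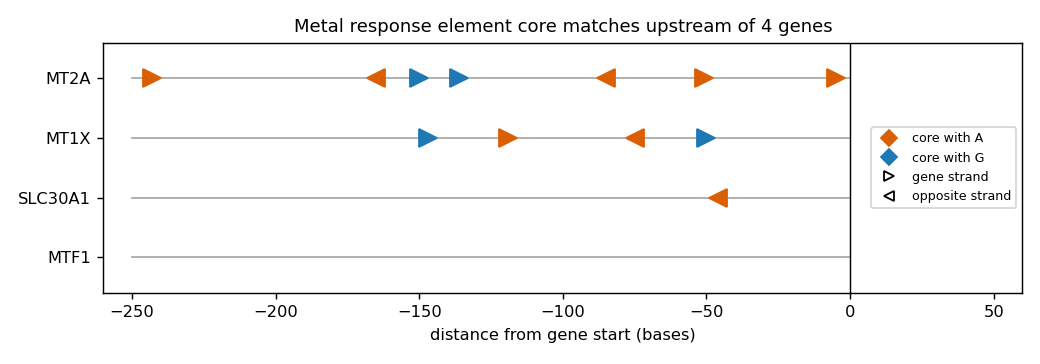
Positions of the 12 matches to the metal response element core, TGCACNC (core with A) or TGCGCNC (core with G), in the 250 bases before the RefSeq start of 4 genes; the horizontal axis is the distance from the start in bases and the arrow gives the strand. MT2A has 7 matches spread over the whole window, MT1X has 4, SLC30A1 has 1 and MTF1 has none.

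Library sizes ran from 14970803 to 20636229 counts in genes. Reads aligned to more than 1 place separated 6 libraries (controls 1 and 2, FCCP 1 to 3 and preconditioning+FCCP 3), where they made up 7.13% to 11.5% of all reads, from the other 7, where they made up 3.16% to 5.22%. These are called the higher-share and lower-share sets below, and since control 3 is the only control of the lower-share set and preconditioning+FCCP 3 the only such library of the higher-share set, set and treatment are partly tied. The cells are labelled as myocytes, but of 12 heart muscle markers 8 stayed under 1 CPM in every library (counts scaled by library size), the troponin gene TNNT2 had no count at all, and the summed level of the 12 was 3.61 to 12.5 CPM. All 10 fibroblast markers were detected, with a summed level of 3588 to 7564 CPM over the control, FCCP and preconditioning libraries and 963 to 1110 CPM in preconditioning+FCCP. In bulk samples such as these, fewer cells of a type and less RNA per cell cannot be told apart.

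MT2A supplied nearly all metallothionein transcripts. Levels between genes are compared here as CPM per kilobase of exon. In control libraries MT2A averaged 1487 CPM per kilobase, followed by MT1E at 43.5, MT1X at 1.56, MT1F at 1.07, MT1G at 0.721 and MT1M at 0.451. MT2A made up 90.8% to 98.1% of the summed CPM of the 6 metallothioneins in the 13 libraries. The lowest share was in preconditioning+FCCP 2. SLC30A1 and MTF1 averaged 6.75 and 2.79 CPM per kilobase in controls. Of the 8 genes, 7 passed the filter on low counts. MT1M did not pass, with 63 counts over all 13 libraries, so it was not tested. The 16756 genes that passed the filter form the background of every test.

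Some of these levels rest on few counts or on sequence shared with near copies. MT1F, MT1X and MT1G had 566, 511 and 313 counts in all, against 297779 for MT2A. Of the 50-base windows of their GENCODE 29 transcripts, 18.3% for MT1X, 16.5% for MT1G, 9.87% for MT1M and 7.10% for MT1E also occurred in transcripts of other genes. For MT2A, MT1F, MTF1 and SLC30A1 the share was 3.02%, 1.22%, 0.640% and 0%. MT1X overlaps the transcript AC026461.1 on the same strand, and MTF1 overlaps the pseudogene AL929472.4 on the opposite strand. The levels of the MT1 genes are therefore less certain than those of MT2A, MTF1 and SLC30A1.

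**Figure D2:**
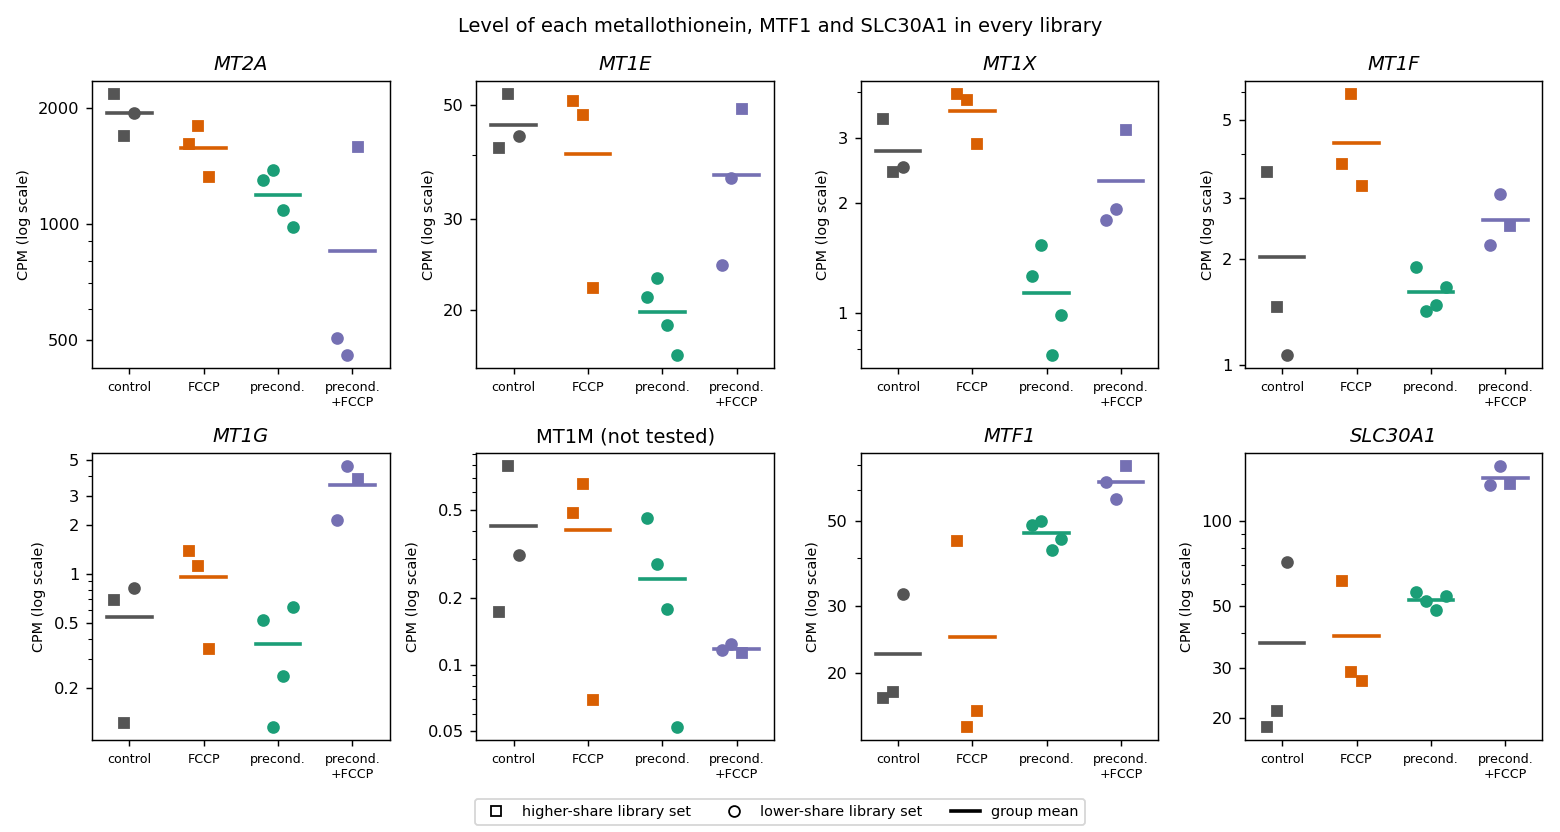
Level of each of the 8 genes in CPM (log scale) in every library by group; squares are the 6 libraries of the higher-share set, circles the 7 of the lower-share set, and bars are group means. SLC30A1 and MT1G lie higher in all 3 preconditioning+FCCP libraries than in any other library, while MT2A lies lowest in preconditioning+FCCP 1 and 2 and at 1583 CPM in preconditioning+FCCP 3.

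SLC30A1, the exporter, was highest in the preconditioning+FCCP group. Its levels were 18.5, 21.1 and 71.3 CPM in controls 1 to 3 and 61.3, 29.1 and 27.0 CPM in FCCP 1 to 3. The 4 preconditioning libraries held 56.1, 51.8, 48.2 and 54.3 CPM. The 3 preconditioning+FCCP libraries held 134, 157 and 135 CPM, all above the 10 other libraries. Control 3 and FCCP 1 stood well above the other members of their groups and reached or passed the preconditioning level. Group means ± SD were 36.9 ± 29.8 CPM (n = 3) for control, 39.1 ± 19.2 (n = 3) for FCCP, 52.6 ± 3.40 (n = 4) for preconditioning and 142 ± 12.8 (n = 3) for preconditioning+FCCP.

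SLC30A1 rose in preconditioning+FCCP against each of the 3 other groups in the edgeR quasi-likelihood test, whose p-values are adjusted over all genes tested. The log2 fold change was 1.95 ± 0.41 (SE) against control, with an adjusted p of 0.00327. Against FCCP it was 1.86 ± 0.41 (adjusted p = 0.00341) and against preconditioning 1.43 ± 0.37 (adjusted p = 0.00674). Leaving out each library in turn kept all 3 calls, with a highest adjusted p of 0.0300 (edgeR). Within the higher-share set, which holds only preconditioning+FCCP 3 of its group, the log2 fold change was 2.75 against control and 1.78 against FCCP. Within the lower-share set it was 1.44 against preconditioning (adjusted p = 0.000566) and 1.01 against control 3 alone, the latter not called. Preconditioning against control gave 0.51 ± 0.38 (adjusted p = 0.345). That value rests on control 3: without it the log2 fold change was 1.40 and the adjusted p 0.00171 (edgeR). Against control 3 alone, within the lower-share set, the log2 fold change was -0.43 and not called.

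MTF1, the gene of the zinc-sensing factor, was higher in both preconditioned groups than in control. Controls held 17.2, 17.9 and 32.2 CPM, and FCCP libraries held 44.1, 14.4 and 15.9 CPM. Preconditioning libraries held 48.6, 49.9, 42.0 and 44.6 CPM, and preconditioning+FCCP libraries 63.1, 56.8 and 69.4 CPM. As with SLC30A1, control 3 and FCCP 1 lay apart from the rest of their groups. All 3 preconditioning+FCCP libraries lay above all 10 others, and the preconditioning libraries lay above all controls but not above FCCP 1.

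By the edgeR test MTF1 rose by 1.49 ± 0.35 on the log2 scale in preconditioning+FCCP against control (adjusted p = 0.00538) and by 1.35 ± 0.35 against FCCP (adjusted p = 0.00802). In preconditioning alone it rose by 1.05 ± 0.33 against control (adjusted p = 0.0315). The rise against control in preconditioning+FCCP was called without each library in turn. The rise against FCCP was not called without FCCP 3 (log2 fold change 1.07, adjusted p = 0.0513), and the rise in preconditioning was called, of the fits that left out 1 library, only in that without control 3. Its adjusted p was 0.0501 to 0.146 without any 1 of the 6 other libraries. Within the lower-share set MTF1 differed by 0.54 between preconditioning and control 3 alone and by 0.87 between preconditioning+FCCP and control 3, neither called. Within the higher-share set it was 1.96 higher in preconditioning+FCCP 3 alone than in controls 1 and 2 and 1.47 higher than in FCCP. Preconditioning+FCCP against preconditioning gave 0.45 ± 0.32 (adjusted p = 0.275), although the groups did not overlap.

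MT2A, the dominant metallothionein, was lower in preconditioning+FCCP than in control, with 1 library of the group apart from the others. Controls held 2168, 1692 and 1935 CPM, while the FCCP libraries had 1610, 1790 and 1318 CPM. Preconditioning libraries held 1295, 1375, 1088 and 978 CPM, all below every control. Preconditioning+FCCP libraries held 504, 455 and 1583 CPM. The first and second of these were the lowest of all 13 libraries, while the third lay within the range of the FCCP group and above all 4 preconditioning libraries. The group means ± SD were 1932 ± 238 CPM (n = 3), 1573 ± 238 (n = 3), 1184 ± 183 (n = 4) and 847 ± 638 (n = 3) for control, FCCP, preconditioning and preconditioning+FCCP.

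MT2A fell by 1.19 on the log2 scale (SE 0.36) in preconditioning+FCCP against control, with an edgeR adjusted p of 0.0223. That call was lost without control 1, preconditioning+FCCP 1 or preconditioning+FCCP 2, where the log2 fold change lay between -1.13 and -0.91 and the highest adjusted p was 0.0916. Against FCCP the log2 fold change was -0.89 ± 0.36 (adjusted p = 0.0655), and against preconditioning -0.48 ± 0.34 (adjusted p = 0.273). Both values turned on preconditioning+FCCP 3: without it they were -1.73 (adjusted p = 0.000190) and -1.34 (adjusted p = 0.000503). Within the higher-share set, which holds only preconditioning+FCCP 3 of its group, MT2A was at -0.31 against control and 0.01 against FCCP, neither called. Within the lower-share set the log2 fold change of the other 2 libraries was -2.04 against control 3 alone and -1.34 against preconditioning (adjusted p = 0.000104). Preconditioning against control gave -0.71 ± 0.33 (adjusted p = 0.134), with no overlap between the groups.

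**Figure D3:**
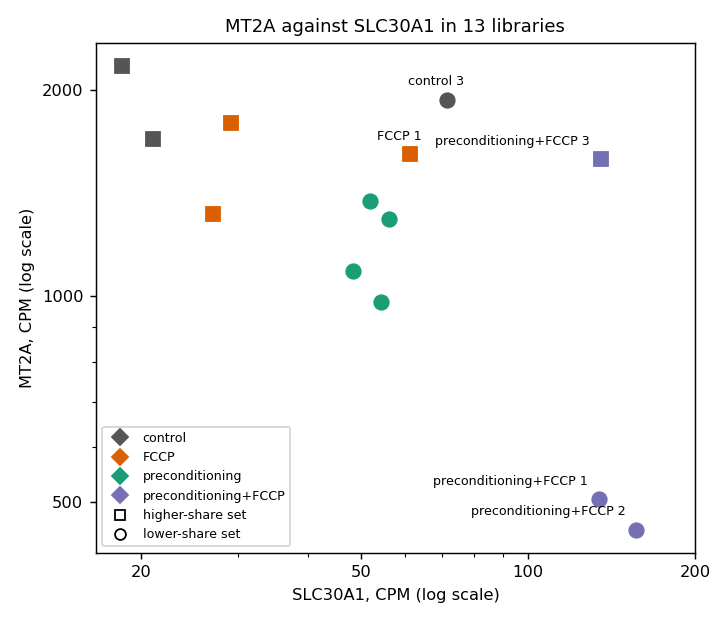
MT2A against SLC30A1 in each of the 13 libraries, both in CPM on log axes; colour gives the group and shape the library set. Preconditioning+FCCP 1 and 2 combine the lowest MT2A (504 and 455 CPM) with high SLC30A1, while preconditioning+FCCP 3 has SLC30A1 at 135 CPM and MT2A at 1583 CPM.

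Preconditioning+FCCP 3, with 8.28% of its reads aligned to more than 1 place, was the only library of its group in the higher-share set. Within the group, the MT2A level of this library and its set therefore cannot be told apart. The summed level of the fibroblast markers was 963 to 1110 CPM in all 3 libraries of the group, of which COL1A1 alone averaged 608 CPM. Whether cell composition had a part in the MT2A values was not tested. The summed metallothionein level, which MT2A dominates, was 534, 501 and 1642 CPM in the 3 libraries.

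MT1E and MT1X were lower after preconditioning alone and higher again when FCCP was added. MT1E held 41.2, 52.6 and 43.5 CPM in controls, 50.9, 47.9 and 22.0 CPM in FCCP, and 21.2, 23.1, 18.7 and 16.3 CPM in preconditioning. In preconditioning+FCCP it held 24.5, 36.1 and 49.1 CPM. All 4 preconditioning libraries lay below all control and all preconditioning+FCCP libraries, and FCCP 3 lay within the preconditioning range. MT1X held 3.38, 2.43 and 2.50 CPM in controls and 3.96, 3.82 and 2.90 CPM in FCCP. It held 1.27, 1.53, 0.769 and 0.987 CPM in preconditioning and 1.80, 1.93 and 3.16 CPM in preconditioning+FCCP. For MT1X the 4 preconditioning libraries were the lowest of all 13.

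By the edgeR test MT1E fell by 1.21 (SE 0.27) on the log2 scale in preconditioning against control (adjusted p = 0.00686) and MT1X fell by 1.28 (SE 0.35, adjusted p = 0.0177). MT1E kept this call without each library in turn, with a highest adjusted p of 0.0374. MT1X lost it without control 1, preconditioning 3 or preconditioning 4 (adjusted p 0.0501 to 0.0868). In preconditioning+FCCP against preconditioning MT1E rose by 0.88 ± 0.27 (adjusted p = 0.0176) and MT1X by 1.00 ± 0.35 (adjusted p = 0.0332). The call for MT1E was lost without preconditioning 4, preconditioning+FCCP 2 or preconditioning+FCCP 3, and that for MT1X without preconditioning 1, 3 or 4 or preconditioning+FCCP 2 or 3. Without preconditioning+FCCP 3 the log2 fold changes were 0.59 for MT1E (adjusted p = 0.139) and 0.68 for MT1X (adjusted p = 0.179). Within the lower-share set the values for preconditioning against control 3 alone were -1.12 for MT1E and -1.12 for MT1X, neither called. In the same set, preconditioning+FCCP against preconditioning gave 0.58 for MT1E (adjusted p = 0.122) and 0.67 for MT1X (0.155).

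MT1G, a low-level metallothionein, was highest in preconditioning+FCCP. Controls held 0.688, 0.121 and 0.813 CPM, FCCP libraries 1.39, 1.12 and 0.345 CPM, and preconditioning libraries 0.518, 0.114, 0.237 and 0.624 CPM. Preconditioning+FCCP libraries held 2.14, 4.60 and 3.84 CPM, above all 10 others. The counts behind these levels summed to 27, 42, 27 and 217 in the 4 groups, and MT1G passed the filter on low counts also when the preconditioning+FCCP group was left out of it. MT1G rose against control by 2.69 ± 0.67 on the log2 scale (adjusted p = 0.00761), against FCCP by 1.89 ± 0.64 (adjusted p = 0.0312) and against preconditioning by 3.21 ± 0.62 (adjusted p = 0.000997, edgeR). The calls against control and preconditioning held without each library in turn. The call against FCCP was lost without FCCP 2, FCCP 3, preconditioning+FCCP 2 or preconditioning+FCCP 3, with adjusted p of 0.0602 to 0.125. It was also lost with the library set as a term in the fit. Within the higher-share set, the log2 fold change of preconditioning+FCCP 3 alone was 3.19 against controls 1 and 2 and 2.00 against FCCP, the latter not called. Within the lower-share set, that of preconditioning+FCCP 1 and 2 was 2.03 against control 3 alone, not called, and 3.12 against preconditioning (adjusted p = 0.00160).

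MT1F and MT1M, also metal-binding isoforms, gave no called difference. MT1F ranged from 1.06 to 3.55 CPM in control, 3.24 to 5.92 CPM in FCCP, 1.42 to 1.90 CPM in preconditioning and 2.20 to 3.08 CPM in preconditioning+FCCP. Its FCCP libraries lay above all preconditioning and preconditioning+FCCP libraries, and control 1 overlapped them. MT1M, which was not tested, had 3, 13 and 5 counts in controls and 7, 10 and 1 in FCCP. It had 8, 5, 3 and 1 counts in preconditioning and 2, 3 and 2 in preconditioning+FCCP, too few to order the groups.

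**Figure D4:**
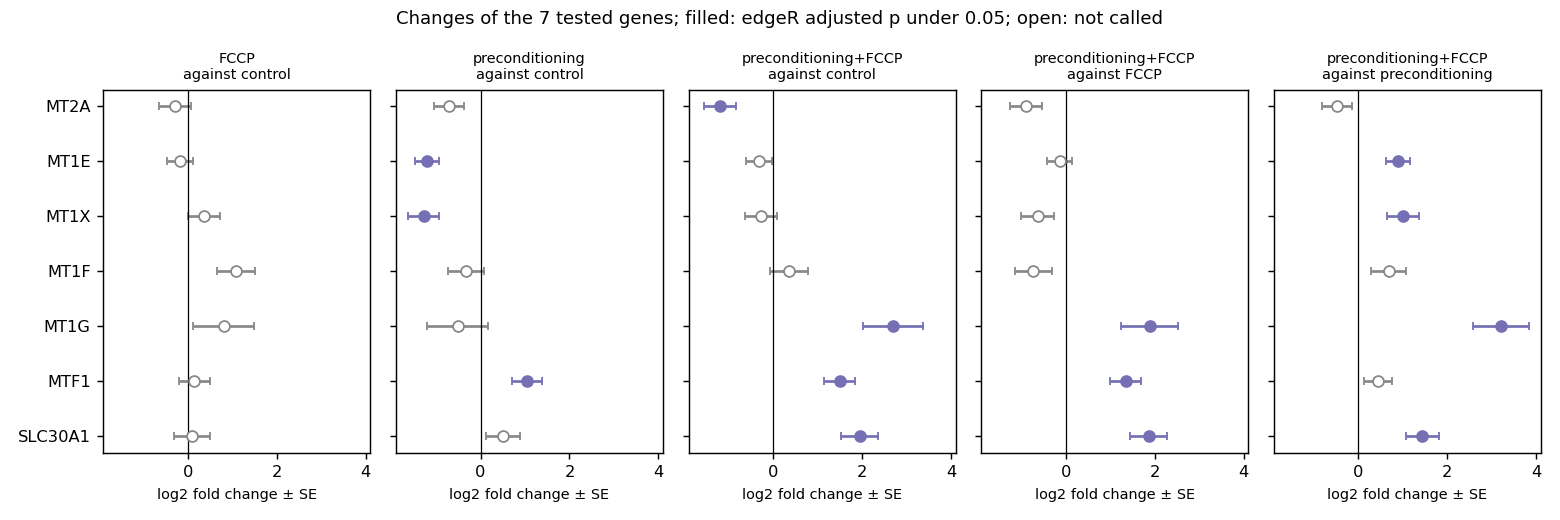
Log2 fold change with its standard error for the 7 tested genes in 5 comparisons; filled points have an edgeR adjusted p under 0.05. SLC30A1 and MT1G are called higher in all 3 comparisons of preconditioning+FCCP, MTF1 in those against control and FCCP, and MT2A is called lower against control.

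In FCCP alone, the stress without preconditioning, no change was called among the 7 tested genes. MT1F gave the smallest p, with a log2 fold change of 1.08 ± 0.43 and an adjusted p of 0.166. MT2A was at -0.30 ± 0.36, MT1E at -0.18 ± 0.29, MT1X at 0.36 ± 0.37, MT1G at 0.81 ± 0.69, MTF1 at 0.15 ± 0.35 and SLC30A1 at 0.08 ± 0.40. The edgeR test thus called 0 of 7, against 3.52% of all genes tested (1.6% higher and 1.92% lower). At an unadjusted p under 0.05 it would call 1, and DESeq2 and limma-voom also called 0. No gene of the 7 had FCCP and control libraries that did not overlap, against 19.3% of all genes. MT1F was called without control 1 (log2 fold change 1.75, adjusted p = 0.0478). The sign for SLC30A1 turned without control 1, control 2 or FCCP 1, with values from -0.42 to 0.97 without 1 library.

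After preconditioning alone, MT1E and MT1X fell and MTF1 rose. These are 3 of the 7 tested genes, against 23.6% of all genes called in that comparison, of which 10.5% were higher and 13% lower. For MT1E, MT1X, MT2A and MTF1 the 2 groups did not overlap, against 36.7% of all genes. The median log2 fold change of the 7 was -0.52, beside -0.02 over all genes tested. With the library set as a term in the fit, MT1E, MT1X and MTF1 lost their calls (edgeR adjusted p = 0.111, 0.195 and 0.228).

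In preconditioning+FCCP against control, SLC30A1, MTF1 and MT1G rose and MT2A fell. These are 4 of 7, against 31.2% of all genes, of which 15% were higher and 16.2% lower. The same 4 genes had groups without overlap, against 37.7% of all genes. The comparisons against control share the control libraries and so are not independent. Against FCCP the first 3 of these genes rose, 3 of 7 and none lower, against 35.7% of all genes called, 17.9% higher and 17.7% lower. Groups did not overlap for MT1F, MT1G, MTF1 and SLC30A1, against 43.2% of all genes. DESeq2 and limma-voom each called 4 of the 7 in that comparison. With the library set as a term, SLC30A1 alone was called against FCCP (log2 fold change 1.27, adjusted p = 0.0277). Over all comparisons and the interaction, that term removed 7 edgeR calls among the tested genes and added 1.

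In preconditioning+FCCP against preconditioning, MT1G, SLC30A1, MT1E and MT1X rose. These are 4 of 7, all higher, against 39.4% of all genes called, 20.2% higher and 19.2% lower. All but MT2A had groups without overlap, 6 of 7, against 52.7% of all genes. The median log2 fold change of the 7 was 0.88, beside 0.02 over all genes tested. The fibroblast markers moved in the same comparison, with 10 of 10 lower, and their part in these results was not tested. Endothelial markers summed to 21.9 to 26.5 CPM in preconditioning and 3.45 to 5.25 CPM in preconditioning+FCCP. Most of this sum was TEK, with means of 19.3 and 3.13 CPM, and 2 of the 5 tested endothelial markers were called lower.

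The interaction asks whether FCCP acted differently with and without preconditioning. The edgeR test called 0 of the 7 genes, against 19% of all genes tested (9.38% with a positive and 9.6% with a negative difference). At an unadjusted p under 0.05 it would call 3, DESeq2 called 1 and limma-voom 0. The largest differences in the effect of FCCP were 2.40 ± 0.93 for MT1G (adjusted p = 0.0804), 1.35 ± 0.55 for SLC30A1 (adjusted p = 0.0942) and 1.07 ± 0.40 for MT1E (adjusted p = 0.0709). MT2A, MTF1, MT1F and MT1X had adjusted p of 0.390 or more. Without FCCP 1 alone, 3 were called (MT1E, MTF1 and SLC30A1), and without any other single library at most 1.

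The other zinc transporters give the setting of these genes. SLC39A10, the importer ZIP10, was lowest in preconditioning+FCCP, the group in which SLC30A1 rose. Its levels were 21.3, 27.2 and 16.9 CPM in controls, 19.6, 29.2 and 49.7 CPM in FCCP, 45.2, 44.9, 44.4 and 53.9 CPM in preconditioning and 5.33, 5.87 and 8.02 CPM in preconditioning+FCCP. The 3 preconditioning+FCCP libraries were the lowest of all 13, and all 4 preconditioning libraries lay above the controls. SLC39A10 rose by 1.11 ± 0.27 in preconditioning against control (adjusted p = 0.0103, edgeR). In preconditioning+FCCP it fell by 1.77 on the log2 scale against control (SE 0.30, adjusted p = 0.000906), by 2.36 against FCCP (SE 0.30, adjusted p = 0.000248) and by 2.88 against preconditioning (SE 0.30, adjusted p = 1.18e-05). Its interaction was -3.47 ± 0.41 (adjusted p = 0.000302) and remained called without each library in turn. Unlike MT2A, SLC39A10 in preconditioning+FCCP 3 stayed with its group, and within the higher-share set this library alone gave -2.02 against FCCP.

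Among the 12 tested ZIP importers, which bring zinc into the cytosol, 5 were called higher and 2 lower in preconditioning against control, beside 10.5% of all genes higher and 13% lower. That total ranged from 1 without control 1 to 8 in the fits that leave out 1 library. In preconditioning+FCCP, 2 were higher and 2 lower against control, 3 higher and 5 lower against FCCP, and 0 higher and 3 lower against preconditioning. The totals were 3 to 7, 5 to 7 and 3 in each fit with 1 library left out. Over all genes, 15% were higher and 16.2% lower against control, 17.9% and 17.7% against FCCP, and 20.2% and 19.2% against preconditioning. The median log2 fold change of the 12 was 0.55 in preconditioning against control and 0.15 in preconditioning+FCCP against FCCP, beside -0.02 and 0.01 over all genes. SLC39A13, which encodes ZIP13 of the secretory pathway, fell against FCCP by 1.21 on the log2 scale (SE 0.18, adjusted p = 0.000323), from 98.6 to 156 CPM in FCCP to 49.5 to 59.7 CPM. SLC39A14, the ZIP14 importer of zinc and iron, rose by 0.95 ± 0.19 against FCCP (adjusted p = 0.00184). SLC39A11, another ZIP gene, fell by 0.91 against preconditioning (SE 0.22, adjusted p = 0.00411).

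Of the 6 tested ZnT exporters other than SLC30A1, 1 was called higher in preconditioning against control (SLC30A9 at 0.55 ± 0.16, adjusted p = 0.0263). That call was lost without 6 of the 7 libraries in turn, with edgeR adjusted p of up to 0.128. In preconditioning+FCCP, 4 were higher against control, 5 against FCCP and 3 against preconditioning, and none was lower, beside 15%, 17.9% and 20.2% of all genes called higher. With 1 library left out, 2 to 4, 2 to 5 and 2 to 3 exporters were called. Their median log2 fold change was 0.76 against control and 0.87 against FCCP, beside -0.04 and 0.01 over all genes. SLC30A4, which loads zinc into vesicles, lay between 9.54 and 10.3 CPM in the FCCP libraries and between 20.5 and 30.2 CPM in the preconditioning+FCCP libraries, a rise of 1.41 ± 0.20 (adjusted p = 0.000318). SLC30A4 also had an interaction of 1.21 ± 0.27 (adjusted p = 0.00765) that was called without each library in turn. SLC30A3, another vesicular exporter, rose by 1.54 ± 0.37 against preconditioning (adjusted p = 0.00444). SLC30A5, an exporter of the secretory pathway, rose by 0.85 ± 0.16 against FCCP (adjusted p = 0.00140). In FCCP against control edgeR called no gene of either transporter family. At an unadjusted p under 0.05 it would call 1 exporter and 3 importers, DESeq2 called 1 exporter and no importer, and limma-voom called neither.

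**Figure D5:**
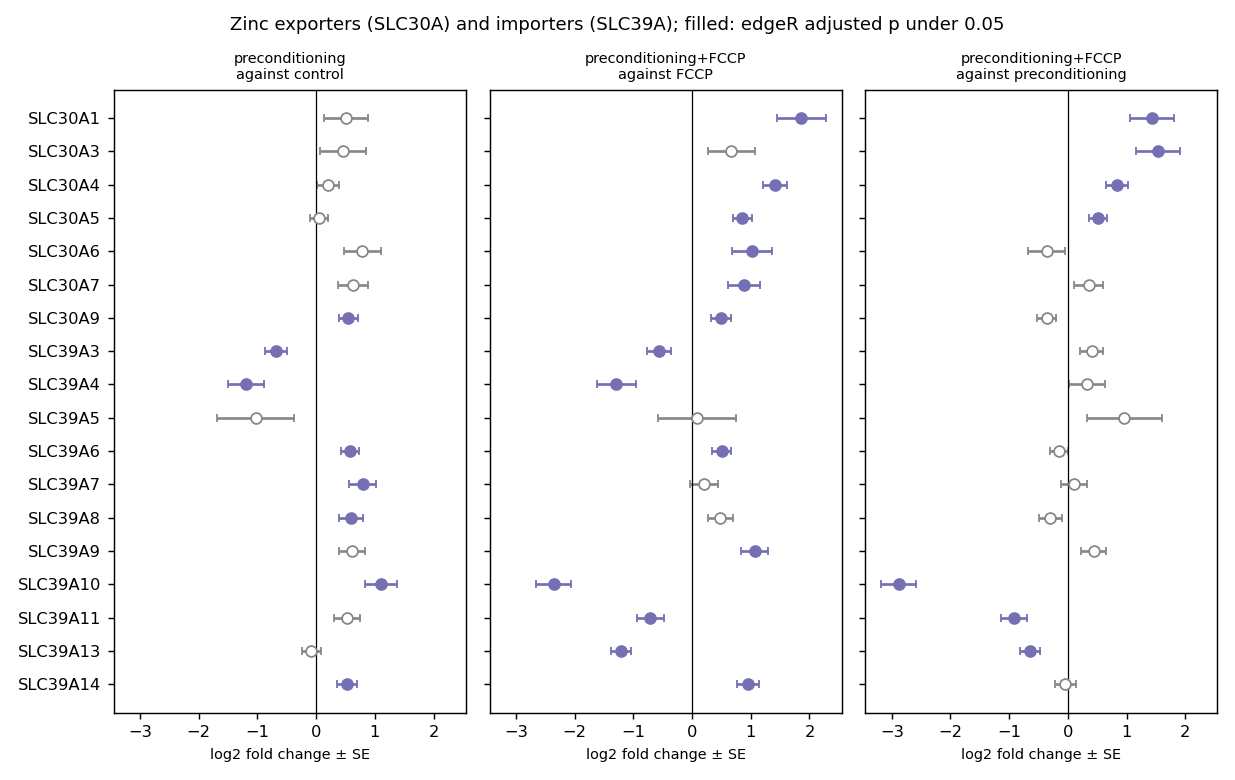
Log2 fold change with its standard error of SLC30A1, the 6 other tested zinc exporters (SLC30A) and 11 of the 12 tested importers (SLC39A) in 3 comparisons; filled points have an edgeR adjusted p under 0.05. SLC39A10 has the most negative value against FCCP (-2.36) and against preconditioning (-2.88), while every called exporter lies to the right of 0; SLC39A1, at no more than 0.876 CPM in any library, is left out.

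Other metallothionein genes added little. Of 11 further genes and pseudogenes, MT1A and MT3 were tested, and neither was called in any comparison by edgeR, DESeq2 or limma-voom. At an unadjusted p under 0.05 edgeR would call MT3 in preconditioning+FCCP against preconditioning (adjusted p = 0.0901). MT1A, an MT1 copy, held 0.572 to 3.29 CPM, and MT3, the isoform known from brain, held 0.237 to 3.16 CPM. MT1H had 6 counts and MT1IP 3 counts over all libraries.

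Further lists held genes of copper handling, metal stress and glucocorticoid response. Of 10 metal stress genes, 3 rose and 0 fell in preconditioning+FCCP against control, beside 31.2% of all genes called, 15% higher and 16.2% lower. The other 7 were not called, and the median log2 fold change of the 10 was -0.033, beside -0.038 over all genes. Those that rose were GCLC at 1.45 ± 0.25 and GCLM at 0.83 ± 0.24, the subunits of the enzyme that limits glutathione synthesis, and SLC7A11 at 1.72 ± 0.51, which imports cystine. With 1 library left out the count ranged from 1 to 5: GCLM lost its call in 4 of 6 such fits (edgeR adjusted p up to 0.0879) and SLC7A11 in 3 of 6 (up to 0.0858). HMOX1, the haem-degrading enzyme and a textbook target of cadmium and oxidative stress, reached 272 CPM in control 3, whereas the other 12 libraries held 36.6 to 119 CPM. HMOX1 rose by 1.33 ± 0.42 in preconditioning+FCCP against preconditioning (adjusted p = 0.0199, edgeR), a call that was lost without preconditioning+FCCP 2 or 3 (adjusted p = 0.0804 and 0.0612). It was also called lower in preconditioning against control, a call lost in 1 of 7 fits with 1 library left out (edgeR adjusted p up to 0.0778). Its interaction was called without each library in turn, at 1.42 to 2.99 (highest edgeR adjusted p 0.0321). Of 8 glucocorticoid-induced genes, 3 rose, 1 fell and 4 were not called in preconditioning+FCCP against control, beside 31.2% of all genes called. TSC22D3 rose by 2.15 ± 0.32 (adjusted p = 0.000444) and FKBP5 by 1.40 ± 0.18 (adjusted p = 0.000201, edgeR), and ERRFI1 also rose. CEBPD averaged 31.2 CPM in preconditioning+FCCP beside 193 CPM in control, where libraries ran from 15.6 to 346 CPM. Of 9 copper handling genes, 2 rose and 3 fell in preconditioning against control, beside 23.6% of all genes, and 1 to 5 were called with 1 library left out. The copper chaperone gene COX17 fell by 2.05 (SE 0.34, adjusted p = 0.00215).

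Across the 13 libraries, and over 10979 genes with a mean of at least 5 CPM, the genes whose log2 CPM ran most like each of 4 members were found by Pearson's r. For SLC30A1 these were KDM7A (r = 0.978, Spearman's rho = 0.984), ALKBH1, UPF2 and ABTB2. For MTF1 they were TFIP11 (r = 0.978, rho = 0.918), ETV5, EPC2 and UBN1. For MT2A they were LINC01358 (r = 0.945, rho = 0.780), ANXA1, NIT2 and EMP3, and for MT1X HPS1 (r = 0.955, rho = 0.896), ENSG00000260257, SIL1 and NAA10. The libraries share groups and library sets, so these values are a description, and the 8 genes themselves were left out of the search.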

How the data were processed

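Raw read counts per gene in 13 libraries, 1 deposited table each, were used. The submitters' processing notes name HISAT2, HTSeq and build hg19, without versions; annotation release and strand setting are not given in the sources used here. Per the labels' protocols, poly-A RNA was fragmented and primed with random hexamers. Rows without a gene were dropped: 2.13% to 5.20% of reads outside genes, 11.0% to 12.4% in several genes and 3.16% to 11.5% aligned to several places, which near-identical metallothioneins can lose.

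Symbols were matched to Ensembl IDs (42338 of 63241). Counts of 16756 genes passing filterByExpr were scaled by TMM and tested with edgeR 4.0.16 (R 4.3.3) in 1 quasi-likelihood fit with a term per group. Calls have a Benjamini-Hochberg adjusted p under 0.05 over all genes tested, and the SE is the fold change divided by the root of F. Exon lengths, overlaps and shared windows came from GENCODE 29. The script was tested on simulated data. The alternatives were other scaling, no filter, DESeq2 1.42.0, limma 3.58.1, the compared groups alone, a replicate block and each library left out. After seeing the data, 3 libraries were left out together and library sets were used as a term and singly. Used singly, the sets leave 1 library in some groups, whose spread is then borrowed from the other groups of the fit. The members and lists were chosen with earlier results of these data known. All members are named, with up to 3 genes per list and comparison by smallest adjusted p and 4 genes most like each of 4 members; HMOX1 levels were added.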

Additional observations from a re-analysis of the deposited data

How the results depend on the processing

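All calls of SLC30A1 and MT1G in preconditioning+FCCP kept their direction under every alternative run, but not all stayed called. The MT1G call against FCCP was lost in 4 of 6 fits with 1 library left out (edgeR adjusted p up to 0.125). It was also lost with the library set as a term. Counts over all genes moved widely, and the cause was not tested. Out of 7 tested genes, 0, 3, 4, 3 and 4 were called in FCCP against control, preconditioning against control, and preconditioning+FCCP against control, FCCP and preconditioning, and 0 in the interaction, of 590, 3950, 5229, 5976, 6594 and 3180 genes in all. Without a filter, FCCP against control gave 1078 genes and the interaction 3 of the members. DESeq2 gave 1238 genes for FCCP against control and 1 member in the interaction, and limma-voom 382 genes for FCCP against control. With the compared groups alone, FCCP against control gave 17 genes and preconditioning+FCCP against control 3010. With library totals, MT1E against FCCP was 0.022, the median of all genes moved by 0.12 (preconditioning against control), 0.20 and 0.18 (preconditioning+FCCP against control and FCCP), and the share of called genes that were higher moved from 45.4% to 58.0% (FCCP against control), from 44.7% to 55.2%, from 48.0% to 65.1% and from 50.3% to 64.1%. Same-numbered libraries were not treated as pairs in the main fit. The r of their deviations from the group means was -0.200 to 0.158 over 18 pairs, and 1 was over 0.1. Control 3 and FCCP 1, of unlike number, reached 0.232, and 2 libraries correlated best with their own number. With so few libraries per group, these values cannot exclude a pairing. A replicate block gave 55 genes for FCCP against control, 1 member and 1706 genes for preconditioning against control, 2 members against preconditioning and 1762 genes for the interaction. Control 3, FCCP 1 and preconditioning+FCCP 3 were chosen by their SLC30A1 and MT2A values, so calls without them support nothing. Without these 3, FCCP against control gave 1 member, 3113 genes and MTF1 at -0.24, preconditioning against control 5 members and 8405 genes, preconditioning+FCCP 8767 genes against control and 9276 against FCCP, and the interaction 4 members and 6421 genes. With library set as a term, FCCP against control gave 933 genes, preconditioning against control 0 members, 428 genes and MT1F at 0.081, and preconditioning+FCCP against FCCP 1 member, 3506 genes and MT1E at 0.090. Within the higher-share set, FCCP against control gave 1427 genes, preconditioning+FCCP against control put MT1E, MT1F and MT1X at 0.042, -0.035 and 0.10, and against FCCP gave 3570 genes with MT1E at 0.28 and MT2A at 0.011. Within the lower-share set, preconditioning against control gave 0 members, 908 genes, MT1F at 0.61 and SLC30A1 at -0.43, and preconditioning+FCCP against control 1 member and 2608 genes. Leaving out each library in turn gave 142 to 893 genes and 0 to 1 members for FCCP against control, 1506 to 6057 and 1 to 4 for preconditioning against control, 3098 to 6657 for preconditioning+FCCP against control, 3848 to 6943 and 1 to 3 against FCCP, 2 to 4 members against preconditioning, and 2013 to 4576 and 0 to 3 for the interaction. Signs turned in FCCP against control for MT1E (-0.42 to 0.10), MTF1 (-0.59 to 0.49) and SLC30A1 (-0.42 to 0.97), in the interaction for MT2A (-1.02 to 0.11) and MTF1 (-0.072 to 1.01), in preconditioning against control for MT1F (-0.64 to 0.35) and against FCCP for MT1E (-0.46 to 0.072). Low counts limit MT1F, MT1G, MT1M and MT1X.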
